A study of Mus musculus with 24 samples.

Results

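The miRNAs of the block miR-6335 to miR-6420 are mouse miRNAs whose catalogue numbers run from that of miR-6335 to that of miR-6420. They were chosen by number alone, with any letter or arm, and mmu-miR-6366 was left out. The rule gave 88 of the 1881 mouse miRNAs on the array, and no measured value entered it. Of these 88, 24 were detected on at least 5 of the 24 arrays and were tested, 9 were detected on 1 to 4 arrays, and 55 were detected on no array.

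Liver RNA of mice 7, 9 and 10 was hybridized to 1 array per mouse in each of 8 groups. Liver RNA including small RNAs came from tissue kept for 0 h or 96 h at room temperature, with or without a DNase digestion, which gives 4 groups. Liver RNA depleted of small RNAs came from 0 h tissue with DNase, and was hybridized untreated or after incubation with 0 U, 0.026 U or 0.67 U of RNase followed by a second isolation, which gives the other 4. All groups share the 3 livers, so each value rests on the same 3 animals. The labels give neither strain, sex nor age. Depletion was by the choice of isolation kit, and some small RNA remains after it.

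A miRNA is a short RNA cut from a hairpin precursor, which guides silencing of messenger RNAs. The bases 2 to 8, the seed, pair with the target and define families of miRNAs with shared targets. Numbers are given in the order in which miRNAs enter the miRBase catalogue. The array detects labelled RNA by hybridization to short probes.

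RefSeq held the mature sequence of 74 of the 88 miRNAs. The sequences of the miRNAs described array by array are shown first. miR-6360, miR-6378 and miR-6395 are also described so and are named only, since RefSeq held no sequence for them. Capitals mark the seed.
mmu-miR-6343: uGUAAAGUaggagcugacugac
mmu-miR-6348: uCAGCCUUuauaaggugugugu
mmu-miR-6349: uGGAAUGUgggaggggcaugcg
mmu-miR-6368: cUGGGAAGcaguggaggggag
mmu-miR-6370: gCAGGAACagcaaaggggaag
mmu-miR-6385: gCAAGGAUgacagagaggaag
mmu-miR-6392-3p: gACGCAGGuuugccggguccucu
mmu-miR-6394: uCCCUGAGuggggccaggucu
mmu-miR-6402: gAGCAGUUuucccaggaacccgc
mmu-miR-6405: gUGGGAAGcagugggaagcagug
mmu-miR-6412: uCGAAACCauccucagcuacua
mmu-miR-6418-5p: uCAGGGGAagggaagagaugc

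Of the 74 sequences, 28 shared a seed with another miRNA of the array, and 19 shared it with another miRNA of the block, in 8 groups. The sharers not yet printed follow, with their seeds in capitals.
mmu-miR-6342: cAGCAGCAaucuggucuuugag
mmu-miR-6353: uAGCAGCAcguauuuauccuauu
mmu-miR-6419: cAGCAGCAaucugacacaugga
mmu-miR-6341: cAGUGCAAugauauugucacuau
mmu-miR-6389: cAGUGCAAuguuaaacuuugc
mmu-miR-6367: uCCCUGAGacccugguucagga
mmu-miR-6369: uGGCUCAGuucaguguuggugag
mmu-miR-6410: uGGCUCAGggacuacucugugc
mmu-miR-6413: uGGCUCAGaagagcagguagu
mmu-miR-6382: uGGAAUGUaaagagagcacacaag
mmu-miR-6346: uAGCAGGUgucugcaaugccaa
mmu-miR-6350: uAGCAGGUgcauuauaaauau
mmu-miR-6339: gAUGCCUUuguccucaguguuag
mmu-miR-6386: cAUGCCUUagggugggaugcaagu
mmu-miR-6404: gUGGGAAGugacaagggguag

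Several of these seeds are those of well-known families. miR-6342, miR-6353 and miR-6419 carry the seed of miR-15a-5p and miR-16-5p, a family known for restraint of the cell cycle. miR-6341 and miR-6389 carry that of miR-130a-3p and miR-301a-3p, miR-6367 and miR-6394 that of miR-125a-5p and miR-125b-5p, and miR-6369, miR-6410 and miR-6413 that of miR-24-3p. miR-6349 and miR-6382 have the seed of the muscle miRNA miR-206-3p. Of the 28 seed sharers 17 were detected on no array, and miR-6342, miR-6353, miR-6419, miR-6341, miR-6389, miR-6367, miR-6369, miR-6410 and miR-6413 were among them. Past the seed, miR-6368 and miR-6405 share a run of 13 bases. The longest run shared by any pair of the block, 17 bases, joins miR-6344 and miR-6384, which were detected on no array.

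Detection is the call of the scanner software for a miRNA on an array. At 0 h, 7, 6 and 6 of the 88 miRNAs were detected in mice 7, 9 and 10 with DNase, and 5, 5 and 6 without. At 96 h the numbers were 26, 29 and 24 with DNase and 23, 22 and 24 without. Every 96 h array thus had at least 22 detected miRNAs of the block and no 0 h array more than 7. In depleted RNA 5, 3 and 4 were detected untreated and 6, 3 and 6 after mock incubation. The 0.026 U dose of RNase gave 8, 18 and 9. The 0.67 U dose gave 12, 12 and 17.

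With DNase, unstored liver gave a share of 7.20% ± 0.656 (SD, n = 3) of the 88. Storage brought this share to 29.9% ± 2.86 (SD, n = 3). The other 1793 miRNAs of the array stood at 16.3% ± 0.706 (SD, n = 3) before and 34.4% ± 3.35 (SD, n = 3) after storage. In RNA depleted and untreated the block stood at 4.55% ± 1.14 (SD, n = 3) and the others at 11.1% ± 1.28 (SD, n = 3). On every array the block's share of detected miRNAs was below that of the other miRNAs.

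**Figure D1:**
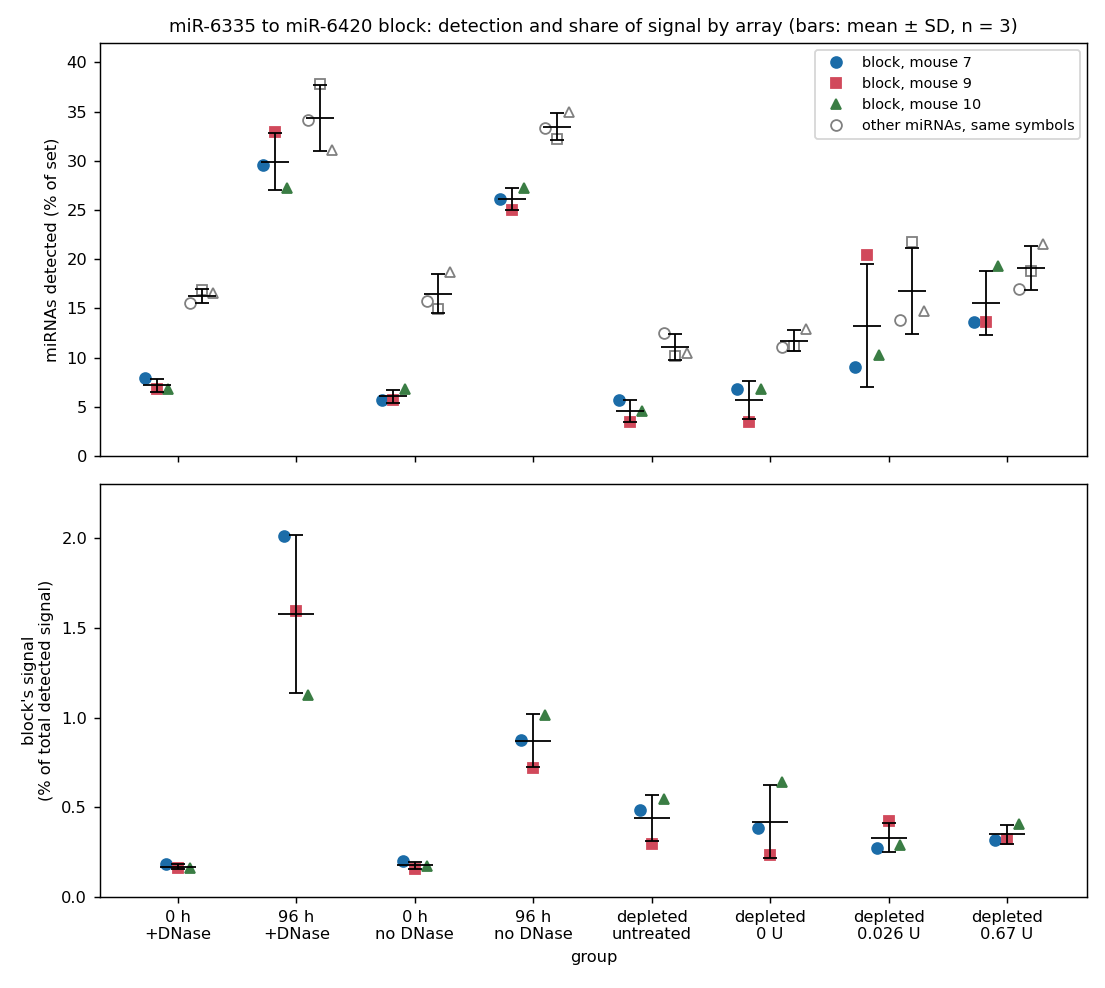
Upper panel: percent of the 88 miRNAs of the block (filled symbols) and of the other 1793 (open grey symbols) detected on each array, by group. Lower panel: signal of the detected miRNAs of the block as percent of the total detected signal. Symbols are mice and bars are mean ± SD of 3 arrays. The block's share of signal lay between 0.157% and 0.1998% on arrays of unstored liver with small RNAs and between 0.720% and 2.01% on the 96 h arrays.

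The summed signal of the detected miRNAs of the block is a measure that needs no scaling between arrays when it is set against the total of the same array. With DNase it made up 0.170% ± 0.0148 (SD, n = 3) of the total in unstored liver and 1.58% ± 0.441 (SD, n = 3) in stored liver. The corresponding shares without DNase were 0.177% ± 0.0216 (SD, n = 3) and 0.870% ± 0.148 (SD, n = 3). The 0 h and 96 h arrays did not overlap in either DNase state. In depleted RNA incubated without RNase the share was 0.420% ± 0.204 (SD, n = 3). The lower dose gave 0.331% ± 0.0808 (SD, n = 3) and the higher dose 0.350% ± 0.0517 (SD, n = 3), and these 3 groups overlapped. The block's summed signal itself was higher on the 6 RNase arrays, 104 to 753 intensity units, than on the 0 U arrays, 20.7 to 64.3.

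miR-6368 was the brightest miRNA of the block on all 6 of the 0 h arrays with small RNAs, with 62.2% to 74.997% of the block's signal. miR-6360 took this place on all 6 arrays of depleted RNA without RNase. At 96 h the brightest was miR-6385 in mice 7 and 9 with DNase, and miR-6392-3p on the other 4 arrays. On the RNase arrays it was miR-6385 on 5 of 6.

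**Figure D2:**
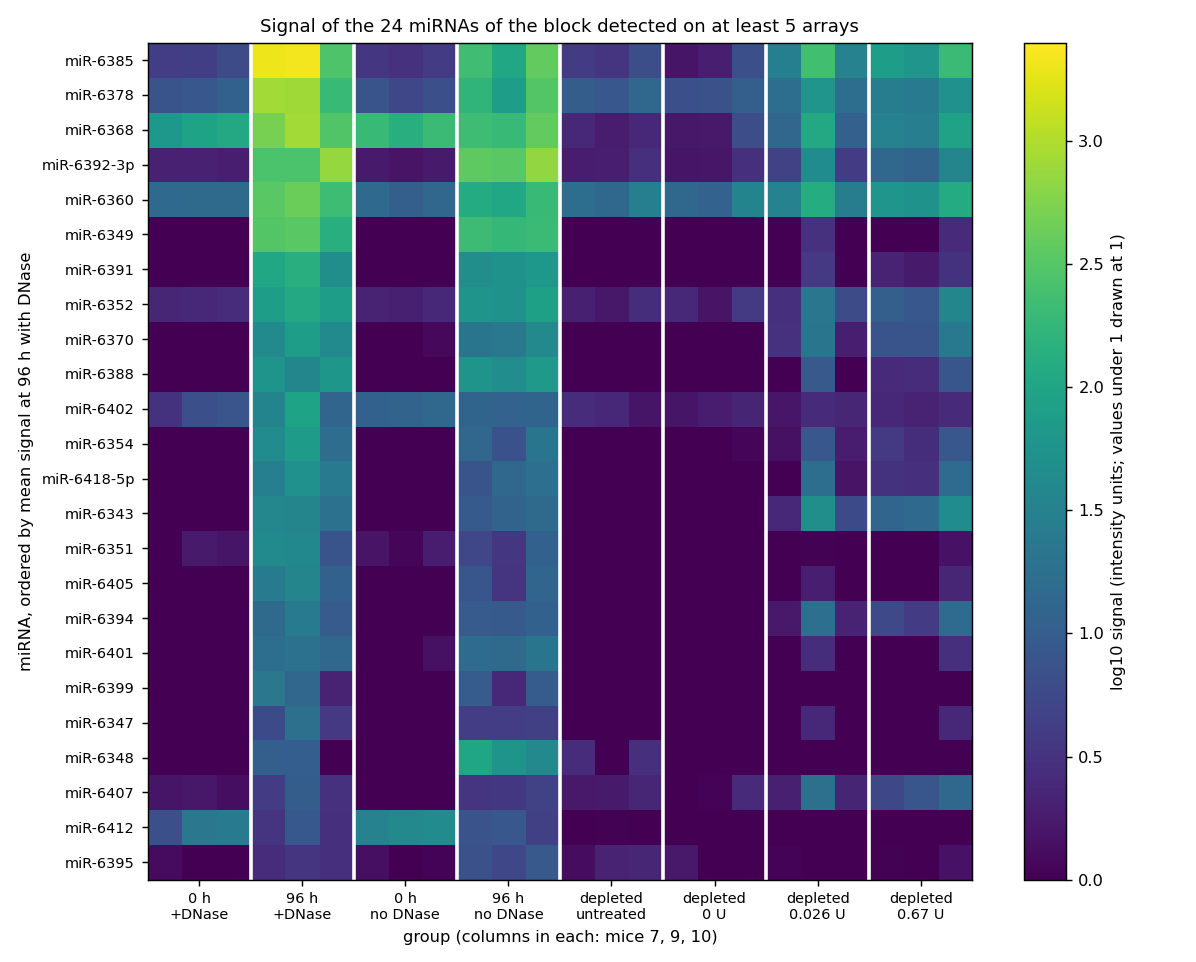
Signal on a log10 scale of the 24 miRNAs of the block detected on at least 5 arrays, with 1 row per miRNA and 1 column per array, mice 7, 9 and 10 in order within each group. Most rows are dark at 0 h and in depleted RNA without RNase and bright at 96 h, whereas miR-6412 is bright at 0 h and dark in all depleted RNA.

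Values that limit the comparisons come first. The RNA integrity number in the labels lay from 8.80 to 9.40 on the arrays of 0 h tissue without RNase, from 2.30 to 2.50 at 96 h, from 6.00 to 7.00 at 0.026 U and from 2.40 to 2.90 at 0.67 U. The total detected signal was 55237 to 163493 intensity units at 0 h with small RNAs, 187378 to 362324 at 96 h, and 7125 to 10043 in depleted RNA without RNase. Changes are given on the glog2 scale of a variance stabilizing normalization, on which 1 is a 2-fold change for bright signals. This scaling sets the 96 h arrays lower than spike-in RNAs do. The signal of 4 spike-in RNAs was 1.37 ± 0.0505 (SD, n = 3 mice) times that at 0 h on the 96 h arrays with DNase, while the median change of all 631 miRNAs tested was 2.47 on the glog2 scale and 3.35 under spike-in scaling. Each change of the block is therefore set beside the median over all miRNAs tested.

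The liver identity of the tissue was checked with marker miRNAs. All 4 hepatocyte markers, miR-122-5p among them, were detected on all 6 of the 0 h arrays with small RNAs, where they summed to 7830 to 15629 intensity units. The 3 muscle and the 3 neuron markers were detected on none of these arrays. At 96 h, 2 of the 3 muscle markers, miR-133a-3p and miR-206-3p, were detected on 1 or more arrays, and the muscle list summed to 9.09 to 31.7 against -1.30 to 0.182 at 0 h. Other lists had lower sums at 96 h than at 0 h: hepatocyte 3632 to 7096, endothelial 55.7 to 131 against 289 to 604, and biliary 0.480 to 3.29 against 4.88 to 14.3. The sums of 3 lists overlapped: leukocyte 20.5 to 76.2 against 46.0 to 186, stromal 6.73 to 33.4 against 22.5 to 76.4, and erythroid 181 to 243 against 224 to 575. Within the leukocyte list miR-155-5p went the other way, detected at 96 h and on none of the 0 h arrays with small RNAs. The part of these lists in the results was not tested. Fewer cells of a type and less RNA per cell cannot be told apart in tissue RNA.

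The first question was what 96 h of storage does to the signals of the block. With DNase, 19 of the 24 miRNAs tested rose and 1 fell (limma, Benjamini-Hochberg adjusted p under 0.05 and a change of at least 1). Over all 631 miRNAs tested, 60.4% rose and 21.6% fell. The median change was 3.84 in the block and 2.47 over all, and 17 of the 24 lay above the median of all. Without DNase 18 rose and 3 fell, beside 60.5% and 23% over all, with medians of 2.89 and 2.16. All 18 were among the 19 with DNase, and the other one was miR-6351. The 2 comparisons use different arrays of the same livers. Of the 19, 18 were detected on all 3 arrays at 96 h and 15 on no array at 0 h with DNase. No 0 h array with small RNAs and no depleted array without RNase detected 15 of the 24 tested. These 15 passed the detection filter through 96 h or RNase arrays alone. For them the filter by itself favours calls of a rise with storage or RNase.

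miR-6349, which has the seed of miR-206-3p, was detected at 96 h alone. It was at 307, 343 and 141 intensity units in mice 7, 9 and 10 at 96 h with DNase and at 216, 186 and 208 without. On the other arrays its signal was 3.04 or less. All 96 h arrays lay above all others. Its change with DNase was 10.86 ± 0.80 (SE). Since it was not detected at 0 h this is no fold. No p-value is given for its rise, since the 96 h arrays alone brought it through the detection filter. It was at least 45.9-fold higher at 96 h, measured against the lowest detected signal on each 0 h array. That signal is the lowest of any miRNA and not a detection limit for this one. This and the other "at least" folds are therefore no strict bounds.

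miR-6385, which lies within the span of Pml, the gene of a nuclear body scaffold protein, reached the highest signal of the block. At 0 h with DNase it was at 4.21, 4.26 and 6.15 intensity units, and at 96 h at 2061, 2182 and 291. Mouse 10 lay far below mice 7 and 9, yet well above every 0 h array. Arrays without DNase read 3.399, 3.02 and 3.96 at 0 h and at 227, 109.8 and 386 at 96 h. The change with DNase was 5.82 ± 0.62 (SE, limma adjusted p = 4.85e-08). By rank of signal among the 1881 miRNAs of an array it moved from 198, 219 and 189 at 0 h to 26, 27 and 78 at 96 h, a measure that no scaling changes.

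miR-6418-5p, which lies within the span of the G protein subunit gene Gnb2, was not detected at 0 h. It was at 29.6, 51.8 and 26.4 intensity units at 96 h with DNase. The arrays without DNase read 7.75, 14.2 and 17.5. It was at least 6.65-fold higher at 96 h with DNase. miR-6405, which lies within the span of the kidney transcription factor gene Pax2, was likewise not detected at 0 h and reached 25.4, 35.7 and 11.5 with DNase and 8.12, 3.36 and 13.0 without. It was at least 4.35-fold higher with DNase. All 96 h arrays of both miRNAs lay above all 0 h arrays. No p-values are given, since 96 h or RNase arrays alone brought both miRNAs through the detection filter.

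miR-6360 and miR-6378 were detected on all 24 arrays, so their changes rest on measured signals on both sides. miR-6378 was at 7.66, 8.49 and 11.4 intensity units at 0 h with DNase and at 842, 818 and 199 at 96 h, and at 7.56, 5.37 and 6.82 without DNase against 169, 80.0 and 311. It rose by 3.91 ± 0.41 (SE, limma adjusted p = 4.26e-08). miR-6360 was at 14.6, 14.9 and 14.9 at 0 h with DNase and at 339, 432 and 220.3 at 96 h, and without DNase at 14.4, 10.7 and 13.3 against 125, 107 and 195. It rose by 2.54 ± 0.38 (SE, limma adjusted p = 3.18e-06), 0.07 above the median of all miRNAs. Its rank was 101, 111 and 123 at 0 h and 86, 83 and 95 at 96 h.

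miR-6392-3p, whose hairpin lies within the span of the hepatic lipid gene Pnpla3, was, with miR-6388, 1 of 2 miRNAs of the block detected on all 3 arrays at 96 h with DNase that were highest in mouse 10. It was at 2.04, 2.02 and 1.93 intensity units at 0 h with DNase, where 1 array detected it, and at 277, 274 and 730.4 at 96 h. Without DNase it was not detected at 0 h and reached 363, 341 and 713, at least 57.0-fold higher. With DNase it rose by 5.34 ± 0.54 (SE, limma adjusted p = 2.6e-08).

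The other miRNAs that rose with DNase were detected on no 0 h array with small RNAs. For these the "at least" fold was 16.9 for miR-6391, 10.04 for miR-6370, 9.77 for miR-6388, 8.21 for miR-6352, 7.34 for miR-6354 and 5.67 for miR-6343. It was 3.47 for miR-6351, 3.27 for miR-6401, 3.15 for miR-6394, 1.997 for miR-6399, 1.65 for miR-6347 and 1.19 for miR-6348. For miR-6352, and in part for miR-6351, it was measured against the miRNA's own undetected signals, which lay above the lowest detected ones. Against the median of all miRNAs, miR-6351 and miR-6348 had lower changes, at -0.67 and -0.53 relative to it on the glog2 scale. Each of the 19 was higher in all 3 mice, and each of the 2 or 3 different probes of every one of them had a higher mean at 96 h than at 0 h. The probes of a miRNA could be very unequal. Their 96 h means were 4.17 and 260 for miR-6349, 8.33 and 612 for miR-6378, and 1.39 and 28.9 for miR-6351. For miR-6385 they were 754 and 758.

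miR-6412 was the one miRNA of the block that fell with storage in both DNase states. It was at 6.68, 22.0 and 24.4 intensity units at 0 h with DNase and at 3.32, 8.76 and 2.97 at 96 h, where 2 of 3 arrays detected it. In the absence of DNase it was at 32.5, 39.7 and 43.2 at 0 h and at 7.31, 8.32 and 4.37 at 96 h, with no overlap. With DNase the signals of 0 h and 96 h overlapped, although mouse by mouse each was lower. It fell by 3.25 ± 0.42 (SE, limma adjusted p = 5.96e-07) with DNase and by 3.99 ± 0.42 (SE, limma adjusted p = 4.78e-08) without. miR-6412 lies within the span of a long noncoding RNA gene, Gm36284.

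miR-6368 and miR-6402 depended on the scaling. miR-6368 was at 65.0, 92.8 and 112 intensity units at 0 h with DNase and at 511, 859.7 and 298 at 96 h. Without DNase it was at 198, 139 and 207 at 0 h and at 219, 197 and 382 at 96 h. The signals at 96 h were the higher ones with DNase and overlapped without it. Its change was 0.70 ± 0.52 (SE, limma adjusted p = 0.213) with DNase, and it fell by 1.17 ± 0.52 (SE, limma adjusted p = 0.0439) without, a change of 0.11 under spike-in scaling. miR-6402, within the span of the neuronal RNA-binding protein gene Elavl2, was at 3.15, 6.77 and 7.92 at 0 h with DNase and at 34.7, 94.5 and 13.0 at 96 h. Arrays without DNase read 11.5, 11.98 and 13.5 at 0 h and at 12.5, 11.7 and 12.7 at 96 h, which overlap. It was called lower there, with a change of -1.62 ± 0.38 (SE, limma adjusted p = 0.000545), while the change without any normalization was 0.000416.

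The number of block miRNAs that rose with storage with DNase was 18 to 20 when a mouse was left out, beside 55.9% to 59.4% of all. Without the 96 h array of mouse 10 it was 20, beside 60.2%. It was 23 under spike-in scaling, beside 74.2%. With the normalization fitted to the tested miRNAs alone 14 rose and 5 fell, beside 41.4% and 38.4%. With normexp background correction and quantile normalization 3 of the 24 rose, beside 12.7% of all.

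**Figure D3:**
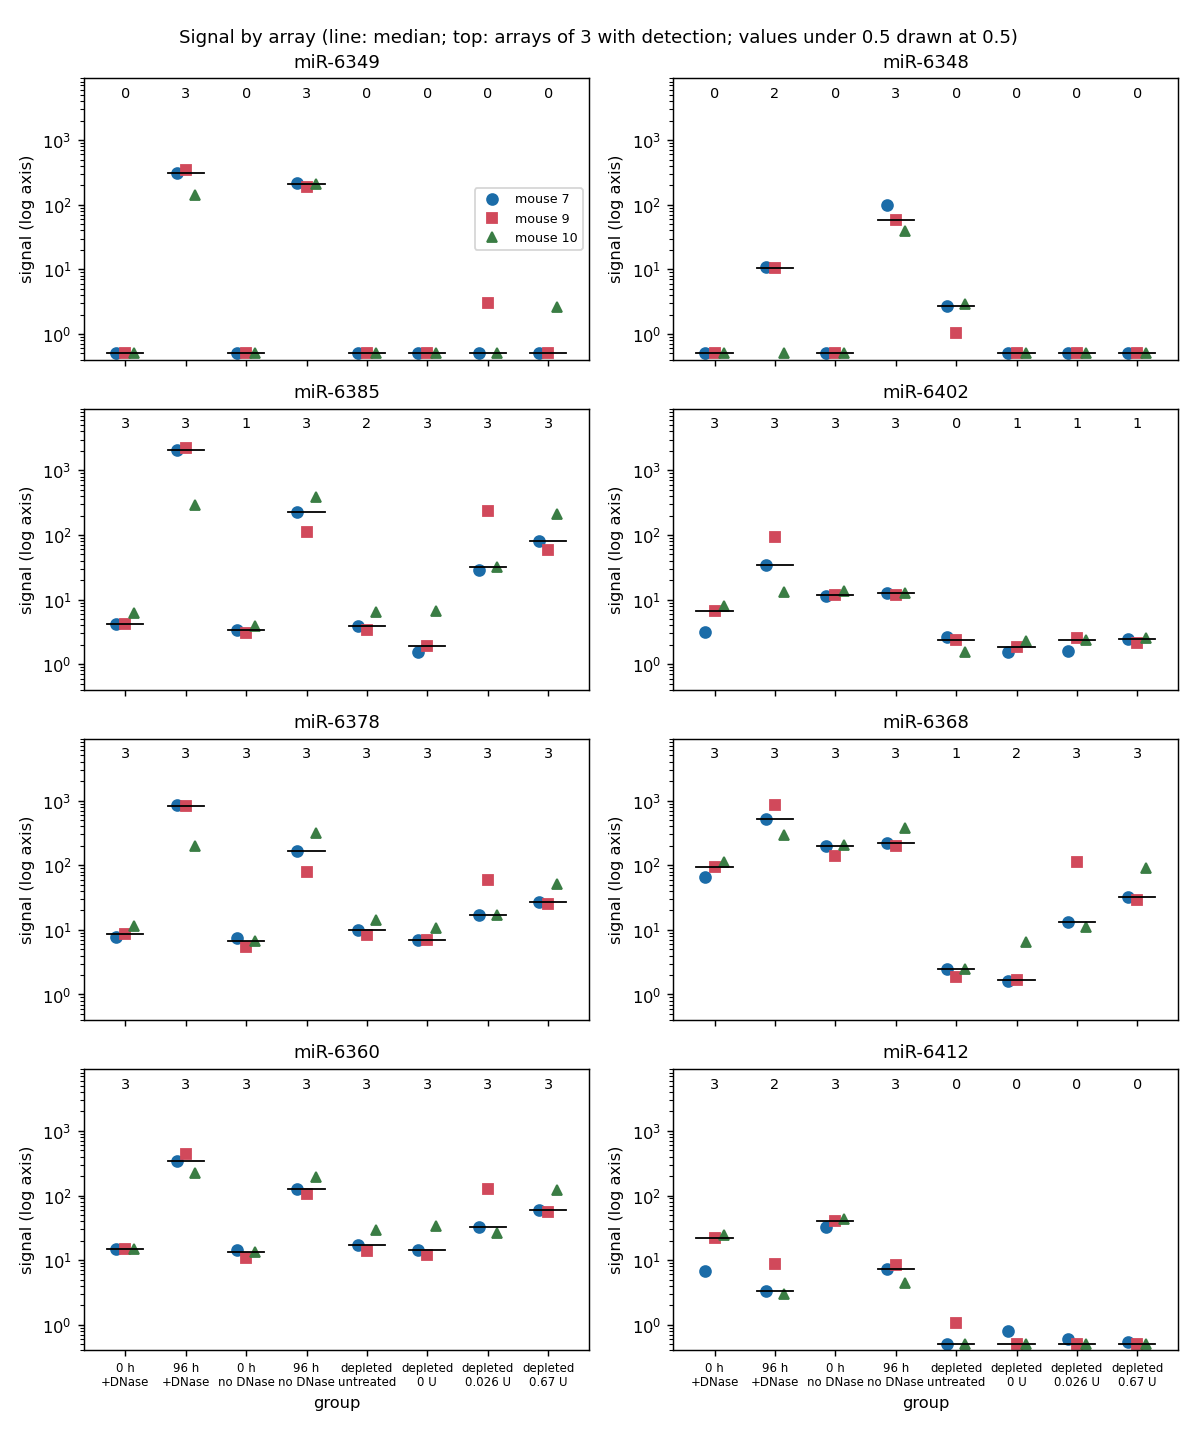
Signal on a log axis of 8 miRNAs of the block on every array, by group and mouse, with the median of each group as a line and the number of arrays of 3 with detection at the top. Signals under 0.5 are drawn at 0.5. miR-6349 is detected at 96 h alone, miR-6360 and miR-6378 on all arrays, and miR-6412 in RNA with small RNAs alone.

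The second question was whether DNase digestion changes the signals, which bears on residual DNA as a source. At 0 h, 0 of the 24 miRNAs were called (limma), beside 0% of the 631 in either direction. At an unadjusted p under 0.05, 2 of the 24 and 30 of the 631 passed. At 96 h 2 miRNAs were higher and 4 lower without DNase, beside 6.18% and 4.6% of all. The median change of the block was -0.54 against 0.02 over all, and 6 of the 24 lay above the median of all.

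miR-6348 had the largest of these changes. It was at 10.7, 10.4 and 0.333 intensity units at 96 h with DNase, where 2 of 3 arrays detected it, and at 98.3, 57.1 and 39.6 without. It was detected on no other array of the study. All arrays without DNase lay above all with DNase, and it rose by 3.41 ± 0.52 (SE, limma adjusted p = 0.00022). miR-6395 was at 2.73, 3.23 and 3.00 with DNase and at 6.96, 5.36 and 8.90 without, detected on 1 and on 3 arrays. The groups did not overlap, and it rose by 1.04 ± 0.27 (SE, limma adjusted p = 0.0153).

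The 4 lower ones were miR-6385, miR-6351, miR-6378 and miR-6402. miR-6385 had a change of -2.22 ± 0.62 (SE, limma adjusted p = 0.0227), but by mouse the changes were -2.94, -3.70 and -0.034 in mice 7, 9 and 10. miR-6351 and miR-6378 were lower in mice 7 and 9 and slightly higher in mouse 10. miR-6402 was lower in all 3 mice, with a change of -1.30 ± 0.38 (SE, limma adjusted p = 0.0288). These calls rest on few arrays: 1 of the 6, miR-6348, stayed called without mouse 7, the same one without mouse 9, and 8 miRNAs were called without mouse 10. With normexp 1 was called, and 1 when the fit held these groups alone.

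The mice were ordered differently in the 2 sets of 96 h arrays. Of the 21 block miRNAs detected on all 3 arrays at 96 h with DNase, mouse 10 had the lowest signal for 17. Of the 22 detected on all 3 without DNase, mouse 10 had the highest for 19. The total signal of the arrays ran the same way, with 199478 in mouse 10 against 245927 and 362324 with DNase, and 260481 against 195914 and 187378 without. The part of this difference between arrays in the DNase comparison was not tested.

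The third question was which signals are lost when small RNAs are removed from intact RNA. Of the 24, 3 were lower and 1 higher in depleted RNA, beside 24.4% and 5.39% of all 631. The median change was 0.06 in the block and -0.17 over all. The balance depended on the scaling: when arrays were scaled to a percentile of the miRNAs that every array detected, 8 of the 24 were higher and 2 lower, beside 40.7% and 15.2% of all. miR-6368 was at 2.45, 1.85 and 2.45 intensity units after depletion, where 1 array detected it, against 65.0, 92.8 and 112 before. It fell by 4.77 ± 0.52 (SE, limma adjusted p = 2.66e-07). miR-6412 was detected on no depleted array, with signals of 1.05 or less, and was at least 8.14-fold lower (limma adjusted p = 1.19e-06). For both, all depleted arrays lay below all arrays before depletion.

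The other 2 calls are on signals that no array of either group detected. miR-6370 was called lower and miR-6348 higher, with signals of 0.678 or less and 2.95 or less, so no fold is given. With the mouse as a replicate block 2 were called higher, the second being miR-6343, which no array of either group detected. miR-6402 was detected on all 3 arrays before and on none after depletion, with a change of -0.97 ± 0.38 (SE, limma adjusted p = 0.0582). miR-6360 was at 16.99, 14.1 and 29.3 after depletion, and miR-6378 at 10.0, 8.33 and 14.2. Their changes were 0.44 ± 0.38 and 0.31 ± 0.41 (SE), neither called.

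After incubation at 0 U with a second isolation 1 of the 24 was called lower and 0 higher (limma), beside 1.58% and 0.158% of all. The call was miR-6348, which no array of either group detected, and with the mouse as a replicate block 0 were called. At an unadjusted p under 0.05, 2 of the 24 and 48 of the 631 passed.

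The fourth question was what RNase does to RNA depleted of small RNAs. With both doses pooled, 18 of the 24 miRNAs rose and 0 fell (limma), beside 44.7% and 0% of all 631. At an unadjusted p under 0.05, 19 of the 24 and 319 of the 631 passed. The median change was 1.85 in the block and 0.69 over all, and 18 of the 24 lay above the median of all. Of the 18, 7 were detected on all 6 RNase arrays, 9 on some, and 2, miR-6349 and miR-6405, on none. For these 2 no fold is given, and their signals did not exceed 3.04. Of the 18, 12 were detected on no 0 U array. These 12 are among the 15 miRNAs that passed the detection filter through 96 h or RNase arrays alone. For them the filter by itself favours a call of a rise, so the count and the median are no independent support for one. The count was 13 without mouse 7 or without mouse 9, beside 37.2% and 33.3% of all. It was 18 without mouse 10, beside 46.6%, and 16 without the RNase arrays of mouse 9, beside 40.1%. Scaled to a percentile of the miRNAs that every array detected, 11 rose and 3 fell, beside 31.7% and 29.2% of all. With the percentile of all miRNAs 11 rose and 2 fell, beside 33.8% and 13.0%. Under quantile normalization 11 rose and 2 fell, beside 28.4% and 24.6%. Under normexp 1 rose and 0 fell, beside 6.02% and 3.33%. With the normalization fitted to the tested miRNAs 9 rose and 6 fell, beside 26.5% and 33.9%.

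miR-6385 was again the brightest. It was at 1.55, 1.90 and 6.71 intensity units at 0 U, at 28.9, 233 and 32.4 at 0.026 U and at 81.6, 58.7 and 210.4 at 0.67 U. All RNase arrays lay above all 0 U arrays, and it rose by 4.02 ± 0.54 (SE, limma adjusted p = 3.36e-06). miR-6368 was at 1.64, 1.68 and 6.40 at 0 U, at 13.3, 114 and 11.1 at 0.026 U and at 32.2, 28.7 and 92.1 at 0.67 U. It rose by 2.89 ± 0.45 (SE, limma adjusted p = 2.2e-05), also with no overlap.

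Among miRNAs detected on every array of a compared group, the 4 with the largest rises were not detected at 0 U. miR-6343 was detected on all 6 RNase arrays, at 2.41, 48.2 and 5.76 intensity units at 0.026 U and 12.8, 14.3 and 45.1 at 0.67 U. It was at least 7.25-fold higher, and 96 h or RNase arrays alone brought it through the detection filter. miR-6370 was detected on 5, at 3.01, 21.1 and 1.91 and at 7.55, 7.74 and 23.9, at least 4.21-fold higher. miR-6394, with the seed of miR-125a-5p, was detected on 4, at 1.72, 17.3 and 2.19 and at 5.57, 4.08 and 15.4, at least 3.16-fold higher. miR-6418-5p was detected on 4, at 1.01, 16.97 and 1.53 and at 3.19, 2.96 and 15.4, at least 2.53-fold higher. Since the values at 0 U were below detection, the order of these changes has no meaning.

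miR-6360 and miR-6378 were called higher, by 1.28 ± 0.33 (SE, limma adjusted p = 0.00262) and 1.36 ± 0.36 (SE, limma adjusted p = 0.00321). miR-6360 was at 14.2, 11.9 and 33.7 intensity units at 0 U, at 32.7, 127 and 26.4 at 0.026 U and at 60.1, 55.6 and 124 at 0.67 U, so that 0 U and RNase arrays overlapped. miR-6378 was at 6.86, 6.87 and 10.7, at 17.1, 59.9 and 17.03, and at 26.6, 25.2 and 52.1, without overlap. By rank of signal miR-6378 was at 80, 79 and 78 at 0 U and from 80 to 89 with RNase, and miR-6360 at 47, 60 and 33 and from 49 to 57. Under quantile normalization both changes turned negative, at -0.24 and -0.15. miR-6412, miR-6402, miR-6395, miR-6399, miR-6351 and miR-6348 were not called with RNase.

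By dose 15 miRNAs rose at 0.026 U and 18 at 0.67 U, beside 36.6% and 44.8% of all, and 0 fell, beside 0.158% and 0.475% of all. The labels of mouse 9 contradict each other on which of its arrays had which dose, and the descriptions were followed here. With the doses of the descriptions, the signals of 0 of the 24 miRNAs separated the 2 doses without overlap. With those of the titles, 12 of the 24 did, and 6 of the 7 that were detected on all 6 RNase arrays. Over all 631 miRNAs tested, 0.475% did with the descriptions and 42.2% with the titles, and of the 242 detected on all 6 RNase arrays 0% and 55.4% did. The RNA integrity numbers of the labels run with the descriptions. The count at 0.026 U was 8 without the RNase arrays of mouse 9, 4 without mouse 9, 8 without mouse 7, and 12 with the doses of the titles. The changes of both doses against 0 U do not depend on these labels, but the estimate of their spread does. With the doses of the titles, 18 of the 24 rose and 0 fell, beside 45.5% and 0.317% of all.

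Storage and RNase were then set against each other by the difference of the 2 changes in the same fit. Of the 24, the difference of storage minus RNase was called positive for 12 and negative for 3, beside 36.5% and 22.3% of all. The median difference was 1.31 in the block and 0.91 over all. miR-6349, at 6.53 ± 1.06, and miR-6405, at 4.09 ± 1.19 (SE), were detected on all 96 h arrays and on no other. The size of these differences therefore rests on values below detection, and no p-value is given. miR-6378 and miR-6360, detected on all arrays, differed by 2.55 ± 0.55 and 1.27 ± 0.50 (SE). The 3 negative ones were miR-6412 at -2.89 ± 0.56, miR-6368 at -2.18 ± 0.69 and miR-6407 at -1.55 ± 0.56 (SE). For miR-6412 this is its fall with storage, since its change with RNase was -0.36, whereas miR-6368 and miR-6407 rose with RNase and were not called with storage with DNase. miR-6407 was detected on 5 of 6 RNase arrays, at up to 17.8 intensity units, on the 3 arrays at 96 h with DNase, at up to 10.2, and on none at 96 h without.

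For 9 miRNAs the difference was not called. miR-6385 was among them, with a difference of 1.80 ± 0.82 (SE, limma adjusted p = 0.065), as were miR-6418-5p, miR-6343, miR-6347, miR-6394, miR-6370, miR-6401, miR-6395 and miR-6402. The count of 12 fell to 6 without mouse 7 and was 19 under spike-in scaling. The shares over all miRNAs are not given for these settings, so these counts show the dependence on the setting alone. Under spike-in scaling the share of all miRNAs that rose with storage with DNase was 74.2%, against 60.4% in the main analysis. Of the 19 that rose with storage with DNase and the 18 that rose with RNase, 16 were in both lists, 84.2% of the first and 88.9% of the second. Over all miRNAs tested, 269 were in both, 70.6% of the 381 that rose with storage and 95.4% of the 282 that rose with RNase. miR-6348, miR-6351 and miR-6399 were called with storage and not with RNase, and miR-6368 and miR-6407 with RNase and not with storage. On the level of detection, 32 miRNAs of the block were detected on 1 or more of the 96 h arrays and 18 on 1 or more RNase arrays. The 18 all lay within the 32.

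**Figure D4:**
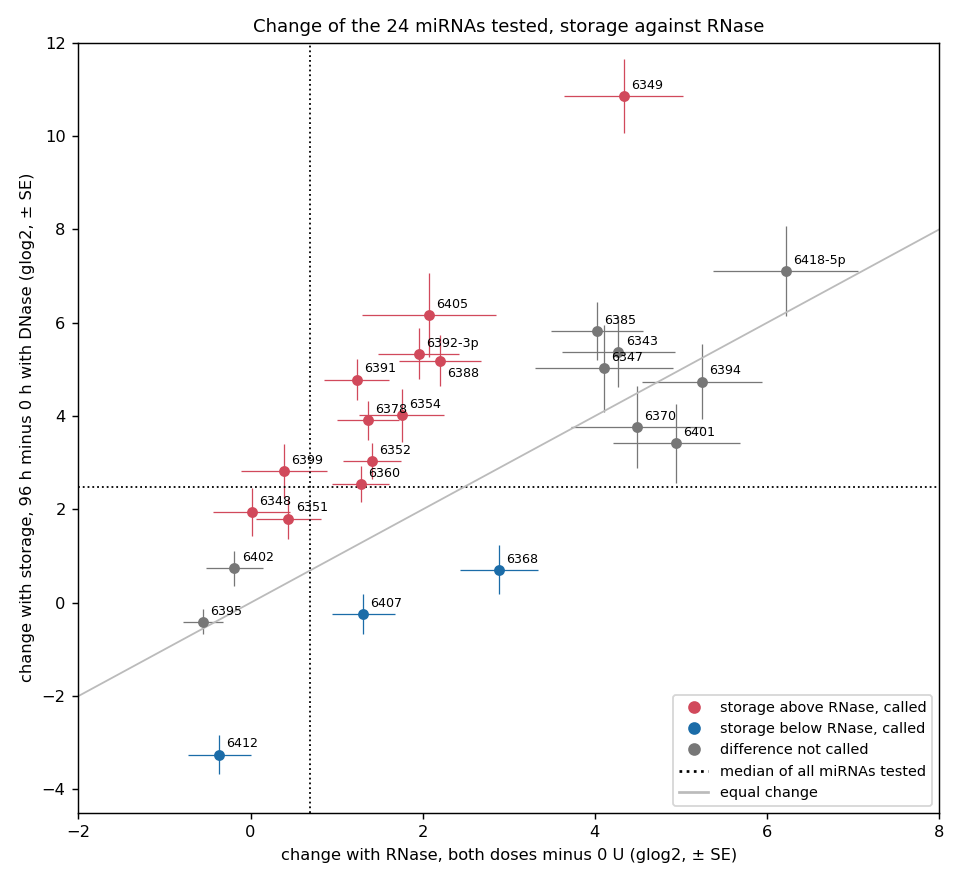
Change with storage for 96 h with DNase (vertical axis) against change with both RNase doses (horizontal axis), both on the glog2 scale with SE, for the 24 miRNAs tested. Colours give the call on the difference, dotted lines the medians of all 631 miRNAs tested at 2.47 and 0.69, and the grey line equal change. miR-6349 stands highest, miR-6412 lowest, and miR-6368 and miR-6407 lie right of the line.

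The 9 miRNAs detected on 1 to 4 arrays were faint, with signals of 14.95 or less. miR-6386 was detected on 4 arrays, 2 at 96 h with DNase, 1 without and 1 with RNase. miR-6345, miR-6359 and miR-6373 were each detected on 2 arrays, both at 96 h with DNase. miR-6380, miR-6415 and miR-6416-3p were detected on 1 array at 96 h with DNase and miR-6409 on 1 without. miR-6393 was detected on 1 array of untreated depleted RNA.

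The sequences of the miRNAs with and without a signal differed in base composition. The median GC content was 57.1% over the 19 tested miRNAs with a sequence and 47.6% over the 47 with a sequence that were detected on no array. Of the 19, 6 held the run GGGG (searched in the mature sequence as printed), and of the 47, 3 did. The same sets over the whole array had median GC contents of 58.3% and 50%, and 20.7% and 5.52% of their sequences held GGGG. The purine share had medians of 56.5% and 50% in the block. These are descriptions without a test.

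Of the 19 tested miRNAs with a RefSeq sequence, 13 lay within the span of another RefSeq gene on either strand, 9 of them protein-coding. miR-6352 lies in Epha4, an ephrin receptor gene, miR-6391 in Abcc4, an export transporter gene, miR-6394 in Tenm4, and miR-6399 in Eif4g3, a translation initiation factor gene. miR-6349, miR-6343, miR-6347, miR-6354, miR-6370 and miR-6401 lay within no other gene.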

How the data were processed

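The miRNAs, their grouping and the tests were chosen with earlier results of these data known. The 24 deposited scanner files, written by Agilent Feature Extraction per the file headers, hold background-subtracted fluorescence intensity, with 30 spots and 2 or 3 probes per miRNA of the block. A second deposited table gives the authors' normalized values, which are log2-like after variance stabilization (vsn). Detected miRNAs entered with the scanner's total gene signal and undetected ones with the sum over their probes. It was normalized by the same method, written in Python 3.11.15, which differed from the deposited values by 0.0956 (SD). miRNAs detected on at least 5 arrays (631) entered limma 3.58.1 (R 4.3.3), with 8 group means, a variance trend, two-sided tests and Benjamini-Hochberg adjustment within each of 10 comparisons. On simulated data for storage with DNase over 631 miRNAs, 93 of 100 changes of 3 and 57 of 100 changes of 1.5 were recovered. There were 7 false calls among 431 unchanged miRNAs. These changes were added to normalized values, in both directions and with independent noise, so the simulation does not cover the effect of the scaling.

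Replicates are separate livers, and the animal number pairs the arrays. Deviations of arrays from their group means correlated at 0.0914 on average for arrays of 1 mouse, and at -0.0449 for arrays of different mice and groups. Each mouse was on 1 slide in 1 scan, so these cannot be told apart. The number of arrays limits the precision. For mouse 9 the titles and the descriptions give opposite RNase doses. Arrays were grouped by the descriptions. Alternatives were other scalings, filters, detection rules and tests, a mouse block and left-out mice.

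miRNAs with signals array by array were, for storage, DNase at 96 h, depletion and RNase, up to 4 rises and 4 falls called in the same direction in all 3 mice and detected on every array of a compared group, and those detected on at least 20 arrays. miR-6392-3p was added after its values were seen, as the brightest on 4 arrays. "At least" folds set the mean of the brighter group against, on each array of the dimmer group, the higher of the lowest detected value and the miRNA's own, on the glog2 scale. A miRNA can go undetected above the lowest detected value. At 0 h with DNase miR-6352 was undetected at 2.35, 2.43 and 2.67 intensity units in mice 7, 9 and 10. The lowest detected signals there were 0.829, 0.815 and 0.878. Sequences and the genes whose span holds a miRNA are from RefSeq (GRCm38.p6), with the strand not considered. Positions are not printed, since the build behind the array's design is not given in the sources used here.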

Additional observations from a re-analysis of the deposited data

Results flagged for a closer look

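In 15 miRNAs of the block the response to storage differed from the response to RNase in the test of the difference itself (limma, adjusted p under 0.05, change of storage minus change of RNase on the glog2 scale, n = 3 mice). The difference was positive for miR-6349 (6.53), miR-6405 (4.09), miR-6391 (3.55), miR-6392-3p (3.38), miR-6388 (2.98), miR-6378 (2.55), miR-6399 (2.43) and miR-6354 (2.26). It was positive also for miR-6348 (1.93), miR-6352 (1.63), miR-6351 (1.36) and miR-6360 (1.27). It was negative for miR-6412 (-2.89), miR-6368 (-2.18) and miR-6407 (-1.55). miR-6348, miR-6349, miR-6351, miR-6399, miR-6405 and miR-6412 were detected on no array of depleted RNA, with or without RNase. The median over all 631 miRNAs was 0.91. Storage was of tissue and RNase acted on purified RNA, so tissue, isolation and agent cannot be told apart. With 3 arrays in a group, single arrays were not tested as outliers.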

How the results depend on the processing

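The count of block miRNAs that rose with storage with DNase (19) was 3 with normexp and 0 with the methods' rank test, whose smallest p is 0.1 with 3 against 3. With no filter, which tests all 88 and mostly undetected miRNAs, 33 were higher and 20 lower, with a median change of -0.13. Over all 1881 miRNAs, 34.9% were then higher and 29.7% lower, with a median change of -0.00325. Without DNase (18) the counts were 3 with normexp, 29 with no filter and 0 with the rank test. The 6 calls of DNase omission at 96 h became 1 with normexp, 1 with only the compared groups fitted and 0 with the rank test. The 3 lower with depletion became 1 and 0 with normexp and the rank test. The 1 call after mock incubation became 2 with no filter and 0 with the deposited values, no normalization, spike-in scaling, normexp, the compared groups alone, the doses of the titles, the rank test and the mouse as replicate block. The 18 that rose with RNase became 11 under either percentile scaling and quantile normalization, 9 with vsn fitted to the tested miRNAs and 1 with normexp. The rank test called 14 before and 0 after adjustment. At 0.026 U (15) the counts were 8 with the percentile of miRNAs detected on all arrays, quantile normalization, the refitted vsn or, chosen after seeing the data, both RNase arrays of mouse 9 left out, 9 with the percentile of all miRNAs, 5 with the compared groups alone, 1 with normexp and 0 with the rank test. At 0.67 U (18) they were 11 with quantile normalization, 10 with the refitted vsn, 1 with normexp and 0 with the rank test. Storage minus RNase (12) gave 7 with the percentile of all miRNAs and the refitted vsn, 6 with quantile normalization, 19 with no normalization or spike-in scaling and 0 with normexp. These counts show the dependence on the processing alone, since the share over all miRNAs is not given for each setting. The cause was not tested.

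With storage, the higher and lower shares of all miRNAs, 60.4% and 21.6%, were 74.2% and 18.2% under spike-in scaling and 41.4% and 38.4% with the refitted vsn. For RNase, 44.7% and 0% became 31.7% and 29.2% with the percentile of miRNAs detected on all arrays. Changes turned sign with the refitted vsn for miR-6348 (-0.42) and miR-6351 (-0.19) with storage with DNase and for miR-6391 (-0.12) and miR-6405 (-0.17) with RNase. So did miR-6368 with storage without DNase (0.51 with no normalization, 0.11 with spike-ins), miR-6402 there (0.000416 with no normalization), and with RNase miR-6360 (-0.0085 with the percentile of miRNAs detected on all arrays, -0.24 quantile, -0.21 normexp) and miR-6378 (-0.15 quantile). Over 85 calls, which leave out those of the single RNase doses, 1284 of 1530 values under alternatives stayed called in the same direction. Of the rest, 235 lost the call and 11 reversed. The rank test and the setting without a fold threshold are not among these alternatives.

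With a mouse left out, counts were 18 to 20 for storage with and 17 to 18 without DNase, 0 to 0 and 1 to 8 for DNase omission at 0 h and 96 h, 2 to 3 for depletion, 0 to 0 for mock incubation, 13 to 18 for RNase, 4 to 18 at 0.026 U, 13 to 18 at 0.67 U and 6 to 11 for storage minus RNase. Pairing by the replicate block left 11 of the 12 calls of storage minus RNase (miR-6351 was lost), 0 after mock incubation and 2 higher with depletion, and changed no other call.

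Detected miRNAs per array, when at least 0.5 of the spots had to lie above background, averaged 4.67 and 22.3 at 0 h and 96 h with DNase, 18 at 96 h without, 2.33 in depleted RNA, 2.67 at 0 U and 10.7 at 0.67 U. At a fixed signal level they averaged 11.7 and 33.7 with DNase, 12.7 and 32 without, 13.3 in depleted RNA and 10.3, 17.3 and 19.3 by rising RNase dose. With a mouse left out the means were 6 to 6.5 and 25 to 27.5 with DNase, 5 to 5.5 and 22.5 to 23.5 without, 3.5 to 4.5 in depleted RNA, and 4.5 to 6, 8.5 to 13.5 and 12 to 14.5 by dose.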
